A study of Mus musculus with 49 samples.

Results

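Gene expression was compared between 4 mouse pluripotent lines, with 2 arrays each, and uninfected embryonic fibroblasts (MEF), also with 2 arrays. These 10 of the 49 arrays of the series were chosen by their sample titles and not by any measured value, and the 4 lines were weighted equally. The fibroblasts came from the skin of limbs and tails of female OGXICR embryos labelled D13.5, freed of epidermis with collagenase, and were grown in DMEM with 10% serum. G6Gm, G3 and Dlx3RNAi are lines of induced pluripotent stem cells (iPSC) that carry the same strain, sex, age and tissue labels, and were made with a doxycycline-inducible lentiviral system. The third carries the treatment label Dlx3 RNAi. Which factors made each line is not given in the labels. R1 is an embryonic stem cell (ESC) line of strain 129, with no sex label. All 4 lines were grown in N2/B27 medium with 1 µM PD0325901 and 3 µM CHIR99021, or with LIF in their place, on mitomycin C-treated MEF feeder cells. Which of the supplements each sample received, and whether feeder cells were removed before RNA extraction, is not given in the sources used here. Medium, feeder cells and cell state therefore cannot be told apart in any difference between lines and MEF. Each line is 1 line, and nothing says that the arrays of a line came from separate cultures, so p-values measure the spread between arrays.

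Mouse pluripotent cells self-renew under a transcription factor network around Oct4 (Pou5f1) and Sox2, and divide with a short G1 phase. PD0325901 blocks the kinase MEK and CHIR99021 blocks GSK3, a pair of inhibitors that keeps such cells in the naive state. Fibroblasts are mesenchymal cells that secrete and remodel collagen-rich matrix and keep a Hox code of their position in the body, and reprogramming replaces that programme with an epithelial, pluripotent one.

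The values are array intensities, and tests used log2 of intensity plus 32. A gene is said to have risen or fallen where limma's test, fitted over all 49 arrays, gave a Benjamini-Hochberg adjusted p below 0.05 for the 4 lines against the MEF. Of 11991 genes tested, 6935 passed (57.8%): 3450 rose (28.8%) and 3485 fell (29.1%), and the median log2 fold change of all genes was 0.04. All 8 line arrays lay above both MEF arrays for 3345 genes (27.9%) and below both for 3312 (27.6%). Each list of genes below is therefore to be read against a background in which more than 1 gene in 4 rose and more than 1 in 4 fell. Counts and medians cover only the members of a list that were tested, called measured here, and not the whole list. These were 13 of 35 genes in the germline list, 15 of 33 in the epithelial list and 28 of 71 in the ribosomal protein list, for example. Each line was also set against the same 2 MEF arrays: 4808 genes passed in G6Gm (40.1%), 6264 in G3 (52.2%), 5777 in Dlx3RNAi (48.2%) and 6371 in R1 (53.1%). Arrays of a group correlated at 0.99 to 0.993 (Pearson, over genes), arrays of different lines at 0.939 to 0.981, and a line with the MEF at 0.816 to 0.889. Between lines, G6Gm lay nearest to Dlx3RNAi (0.972 to 0.981) and G3 to R1 (0.97 to 0.973). The correlation with the MEF was 0.879 to 0.889 in G6Gm and 0.855 to 0.881 in Dlx3RNAi, against 0.817 to 0.825 in G3 and 0.816 to 0.831 in R1. In bulk RNA, fewer cells of a type and less RNA per cell cannot be told apart.

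The genes that separated the lines from the fibroblasts most cleanly are those with the widest empty space between the dimmest array of one side and the brightest of the other. Rises and falls alike were picked by that gap among genes that passed. Their passing and lack of overlap therefore follow from the choice. Zfp42 (Rex1), a zinc finger protein used as a marker of naive cells, stood at 39.5 and 35.6 on the MEF arrays and, over the lines, at 1354 at the lowest, 2103 at the median and 3279 at the highest. Its log2 fold change was 4.94 (SE 0.16, adjusted p = 1.39e-13, limma), and the groups lay far apart. Utf1, a chromatin-bound protein of undifferentiated embryonic cells, stood at 148 and 137 in the MEF and 3520 to 6039 in the lines (log2 fold change 4.68). Rec114, a protein of meiotic recombination, stood at 50.5 and 74.5 against 1457 to 3137 (4.61). In each case every line array was above both fibroblast arrays by an order of magnitude or more. Among genes with no such link, Parp16, an ADP-ribosyltransferase of the endoplasmic reticulum, stood at 58.2 and 55 in the MEF and 1143 to 2074 in the lines (4.26). The apolipoprotein Apoc1 stood at 75.6 and 73.4 against 1265 to 3567 (4.28). Fam25c (5.0) and Fam169a (4.22) were of the same kind, with MEF arrays at 32 and 31.1 and at 48.5 and 51.5 and line arrays at 1643 to 2956 and at 1048 to 2434. No background measure of these arrays was used here, so the lowest values may be no more than background, and a fold change against it depends on the value added before the logarithm.

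The cleanest falls included receptors and signalling genes. Lgr5, a receptor for R-spondins that amplifies Wnt signals, stood at 4315 and 3386 on the MEF arrays and, over the lines, at 89.5 at the lowest, 129 at the median and 210.1 at the highest. It fell by 4.52 on the log2 scale (SE 0.22, adjusted p = 3.41e-17, limma), with no overlap. Agtr2, the type 2 angiotensin II receptor, stood at 1852 and 2409 against 53.2 to 111 (log2 fold change -4.20). Nr4a2, an orphan nuclear receptor, stood at 1865 and 1653 against 31.1 to 87.7 (-4.42), and gave -0.98 on its other probe. On the probes used, all 3 lay far below the fibroblast level in every line: Lgr5 was at 2.42% of the MEF mean in Dlx3RNAi and at 5.37% in R1. Efemp1, a fibulin of the matrix, stood at 1074 and 961 in the MEF and 17.9 to 33.7 in the lines (-4.13). Kcnab1, a potassium channel subunit, stood at 2715 and 2109 against 68 to 125 (-4.25). Cdkn1c (p57), an imprinted inhibitor of cyclin-dependent kinases, stood at 6087 and 7771 against 282 to 408 (-4.24), again without overlap. Rgs9, a regulator of G protein signalling, fell by 4.31 on its brighter probe and rose by 1.03 on its other probe, so its direction is unsettled. The 15 genes of the widest falls all lay between 0.219% and 5.37% of the MEF mean in every line.

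**Figure D1:**
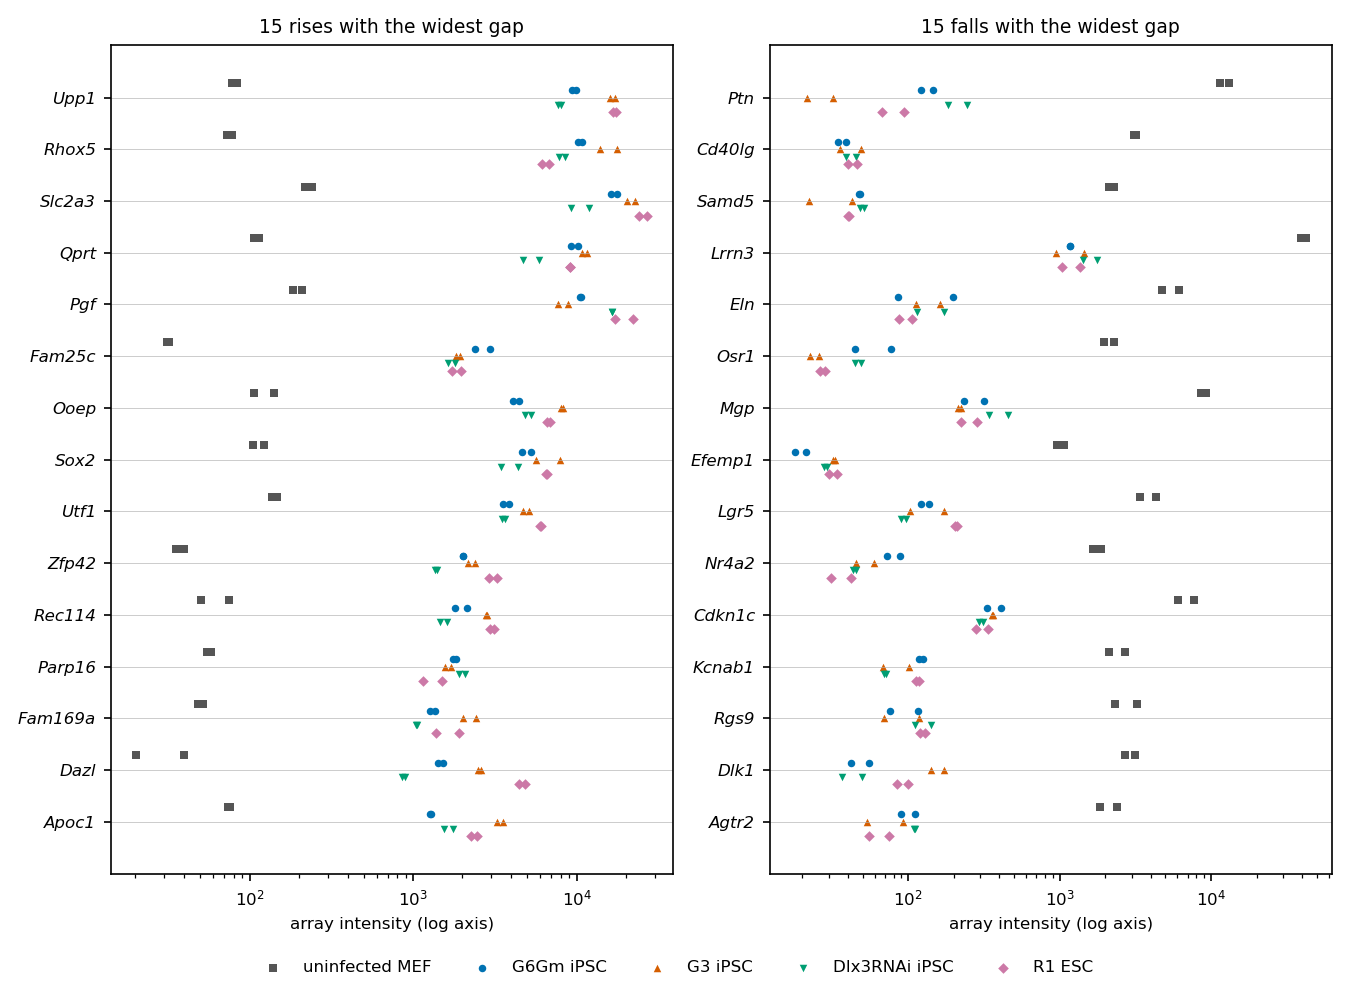
Array intensity (log axis) of the 15 rises and 15 falls with the widest gap between line and MEF arrays; each point is 1 array, coloured by group. MEF squares lie clear of all 8 line arrays in every row, which the choice by gap requires.

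Of the 39 genes of the naive pluripotency list, 18 were measured: 14 rose, 1 fell and 3 did not pass (median log2 fold change 1.81). Nanog, Esrrb, Tfcp2l1 and Prdm14 were among those not measured. Besides Sox2, Zfp42 and Utf1, the genes with the largest changes were Jarid2 (2.81), Pou5f1 (2.16) and alkaline phosphatase Alpl (2.03). Pou5f1 stood at 33.2 and 37.7 on the MEF arrays and was dimmest among the lines in G6Gm, at 113 and 134, and brightest in G3, at 498 and 555. The lines differed (adjusted p = 0.0005, limma's moderated F), while every line array exceeded both MEF arrays. Klf4, a reprogramming factor that MEF also express, stood at 2205 and 2733 in the MEF and 1664 to 3252 in the lines. It did not pass (log2 fold change -0.24, adjusted p = 0.213). That rests on R1, where Klf4 stood at 3019 and 3252: over the 3 iPSC lines alone it fell, with a change of -0.43 (adjusted p = 0.029). Spp1 (-0.24, adjusted p = 0.88) and Etv4 (0.41) did not pass either. Nr0b1, the single fall, fell by 1.12 on its brighter probe, but its other probe rose by 3.13, from a mean of 60.14 to 805.5, so no direction is drawn for it.

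Germline genes had the largest median change of the lists described here: 11 of 13 measured genes rose, none fell, and the median was 2.96. Dmrt1, a sex-determination factor of germ cells, stood at 36.9 and 58.5 on the MEF arrays and 253 to 1777 on the line arrays (log2 fold change 3.21, SE 0.19, adjusted p = 2.28e-11). Rhox9, a reproductive homeobox gene, stood at 61.2 and 65 against 787 to 3850 (3.73). Tdrd12, a tudor protein of piRNA production, stood at 45.1 and 29 against 374 to 651 (3.07). None of the 3 overlapped between groups. Figla (0.57) and Tdrkh (-0.25) did not pass. Many germline promoters are known to be bound by MGA and E2F6, whose sites are the E-box CACGTG and TCCCGCC. These letters were searched on both strands in the 250 bases before the RefSeq gene start, for genes with an entry in the promoter table. CACGTG was in 2 of 10 germline promoters (20.0%) and in 803 of 9641 promoters of all tested genes (8.33%), and TCCCGCC in 2 of 10 (20.0%) against 16.8% of all. The promoters that hold CACGTG are shown because they are the germline members with that match, with the matched letters in capitals (GRCm38.p6, RefSeq). They are those of Slc25a31, a testis ADP/ATP carrier (chr3:40708621-40708870, plus strand), and Ddx4, a germ cell RNA helicase (chr13:112652311-112652560, minus strand), whose first capitals are TCCCGCC read from the other strand.
Slc25a31: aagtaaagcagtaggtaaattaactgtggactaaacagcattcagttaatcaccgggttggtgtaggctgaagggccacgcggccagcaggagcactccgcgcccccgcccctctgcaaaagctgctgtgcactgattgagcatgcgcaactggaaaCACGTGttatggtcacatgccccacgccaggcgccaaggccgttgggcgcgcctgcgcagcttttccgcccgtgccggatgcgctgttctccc
Ddx4: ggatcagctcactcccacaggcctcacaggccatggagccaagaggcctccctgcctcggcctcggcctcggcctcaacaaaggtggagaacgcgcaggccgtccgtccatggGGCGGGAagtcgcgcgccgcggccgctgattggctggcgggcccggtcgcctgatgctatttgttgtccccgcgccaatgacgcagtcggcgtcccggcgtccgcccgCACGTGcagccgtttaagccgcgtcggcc
Slc25a31 stood at 147 and 59.5 in the MEF and 293 to 694 in the lines (1.98), and Ddx4 at 159.5 and 131 against 294 to 709 (1.43). A match is a description of the sequence, and these arrays measured no binding.

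**Figure D2:**
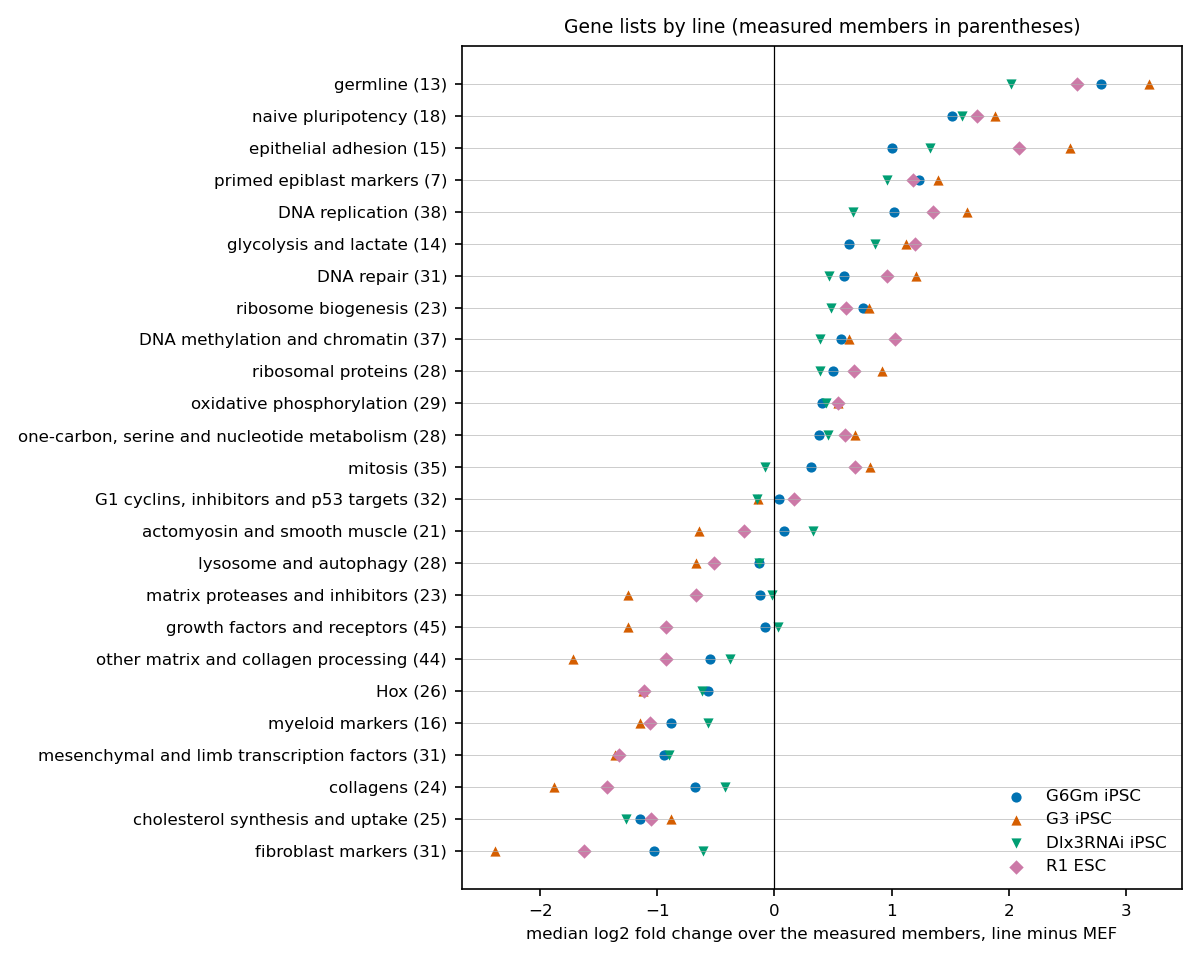
Median log2 fold change of each gene list in each line against the same 2 MEF arrays (x axis; measured members in parentheses). Germline and pluripotency lists lie to the right in all 4 lines, and fibroblast markers lie between -2.39 in G3 and -0.61 in Dlx3RNAi.

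Chromatin regulators rose more often than they fell. Of 37 measured, 20 rose (54.1%), 10 fell (27.0%) and 7 did not pass (median 0.58). Of all genes 28.8% rose and 29.1% fell, so the share of falls was close to that of all genes. Members of Polycomb repressive complex 2, which methylates lysine 27 of histone H3, were among the rises. Its catalytic subunit Ezh2 stood at 446 and 447 on the MEF arrays and, over the lines, at 2053 at the lowest, 2359 at the median and 3487 at the highest (log2 fold change 2.44, SE 0.28, adjusted p = 7.39e-09). The core subunits Suz12 (1.53) and Eed (1.69) rose less, and the accessory subunits Mtf2 (3.00) and Jarid2 (2.81) rose more. Cbx7, the Polycomb reader of that mark, stood at 195 and 175 in the MEF and 1426 to 2994 in the lines (3.31). In every one of these genes the line arrays lay above both MEF arrays. Cbx7 belongs to complex 1, whose other members were divided: Rnf2 (1.02) and Pcgf2 (0.58) rose, Cbx6 (-1.26), Bmi1 (-0.80) and Ring1 (-0.47) fell, and Cbx2 (-0.10) did not pass. Ring1 gave -1.46 on its other probe and was lost with each line's mean as 1 replicate (adjusted p = 0.0663). Dnmt3b, a de novo DNA methyltransferase, stood at 33.2 and 58.5 in the MEF and 352 to 1291 in the lines (3.33). The maintenance enzyme Dnmt1 (-0.25, adjusted p = 0.422) and the de novo enzyme Dnmt3a (0.15, adjusted p = 0.567) did not pass. The high mobility group genes split. Hmgb2 stood at 277 and 335 in the MEF and rose to 3152 to 6684 (3.79, and 0.95 on its other probe), whereas Hmga2 stood at 5101 and 4977 and fell to 455 to 1295 (-2.69). Among subunits of the SWI/SNF remodeller, Smarcc2 fell (-1.97) and Smarcc1 rose (1.08), which are alternative subunits of one position. Smarca4, its ATPase, fell by 1.18 on the brighter probe and rose by 0.99 on the other, and is left without a direction.

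DNA replication genes mostly rose: of 38 measured, 32 rose, 1 fell and 5 did not pass (median 1.12). The 6 genes with the largest changes were Rpa2 (2.33), a subunit of the single-strand binding protein, the primase Prim1 (2.13), the licensing factor Cdt1 (2.06), Mcm10 (2.01), Mcm5 (1.96) and Mcm3 (1.94). Rpa2 stood at 486 and 485 in the MEF and, over the lines, at 1723 at the lowest, 2675 at the median and 3432 at the highest, without overlap. All 6 subunits of the replicative helicase rose, Mcm4 least (1.02), followed by Mcm2 (1.37), Mcm6 (1.5) and Mcm7 (1.64). Geminin (Gmnn), which holds Cdt1 in check, also rose (1.67). The one fall was Rrm1, the large subunit of ribonucleotide reductase, at 1006 and 1074 in the MEF and 316 to 595 in the lines (-1.34). Its partner subunit Rrm2 rose (0.82), with arrays that overlapped. Against the same MEF arrays the list's median was 1.02 in G6Gm, 1.64 in G3, 0.67 in Dlx3RNAi and 1.35 in R1.

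E2F factors are known to drive replication genes at the start of S phase through sites of the form TTTNNCGC. These letters were found on either strand in 7 of 30 replication promoters (23.3%) and in 656 of 9641 of all tested genes (6.8%), in the same 250-base window. Of the 7 genes, 6 rose, and Gins3 did not pass. In the whole list 32 of 38 rose (84.2%), so the genes with a match did not stand out from it. Among these 7 promoters, those of Mcm6 and Orc1 are shown as a helicase subunit and a subunit of the complex that recognises origins, with the matches in capitals (GRCm38.p6, RefSeq). Mcm6 is at chr1:128359706-128359955, minus strand and Orc1 at chr4:108579204-108579453, plus strand. The first capitals of Mcm6 are 2 overlapping matches on opposite strands.
Mcm6: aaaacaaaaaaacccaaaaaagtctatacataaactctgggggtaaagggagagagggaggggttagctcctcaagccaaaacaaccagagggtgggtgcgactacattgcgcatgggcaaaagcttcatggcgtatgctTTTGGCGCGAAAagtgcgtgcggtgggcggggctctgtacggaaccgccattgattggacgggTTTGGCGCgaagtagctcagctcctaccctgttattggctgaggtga
Orc1: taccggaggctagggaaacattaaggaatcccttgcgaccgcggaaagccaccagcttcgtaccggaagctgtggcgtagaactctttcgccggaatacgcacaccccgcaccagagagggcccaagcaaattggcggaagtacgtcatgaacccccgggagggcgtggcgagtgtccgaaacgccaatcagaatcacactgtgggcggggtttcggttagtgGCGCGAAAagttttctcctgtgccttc
Mcm6 stood at 1132 and 1415 on the MEF arrays and 2644 to 5346 on the line arrays, and Orc1 at 71.1 and 75.3 against 160.2 to 436 (1.60). Neither gene overlapped between the groups.

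Mitosis genes moved less. Of 35 measured, 18 rose, 3 fell and 14 did not pass (median 0.39). DNA topoisomerase Top2a (1.66), the kinetochore gene Cenph (1.56), cyclin B2 (Ccnb2, 1.29) and the phosphatase Cdc25a (1.17) had large rises, and Cdc25b (-1.17), Plk4 (-1.04) and Cenpe (-0.80) fell. With each line's mean as 1 replicate, 6 rises passed in place of 18, and Ccnb2 (adjusted p = 0.0594) and Cenpe (adjusted p = 0.0916) were lost. Bub1 rose by 1.73 on its brighter probe and fell by 0.67 on the other. The lines differed in 30 of the 35 mitosis genes (moderated F), against 32.1% of all genes. Against the same MEF arrays, 25 of these genes rose and 1 fell in G3, 22 rose and 3 fell in R1, 9 rose and 6 fell in G6Gm, and 5 rose and 12 fell in Dlx3RNAi. Of all genes, 25.4% rose and 26.8% fell in G3, 25.6% and 27.5% in R1, 18.5% and 21.6% in G6Gm, and 23.3% and 24.9% in Dlx3RNAi. DNA repair genes rose in 19 of 31 cases, with 3 falls (median 0.79), led by the mismatch repair gene Msh6, at 2105 and 2007 in the MEF and 7548 to 13402 in the lines (2.40), and the end-joining gene Xrcc5 (1.70).

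Of 32 measured G1 regulators and p53 targets, 9 rose (28.1%), 10 fell (31.2%) and 13 did not pass (median 0.01). These shares are close to those of all genes, 28.8% and 29.1%. Cyclin E1 (Ccne1), which starts S phase, stood at 323 and 281 in the MEF and 1215 to 2330 in the lines (log2 fold change 2.21, SE 0.26, adjusted p = 1.07e-08). Cyclin D1 (Ccnd1), the mitogen-driven cyclin, went the other way, from 7079 and 7307 to 1291 to 2211 (-2.07). Neither cyclin's arrays overlapped between groups. Of the other E and D cyclins measured, Ccne2 (-0.74) and Ccnd2 (-1.33) fell, and Ccnd3 (-0.10) did not pass, so the E cyclins did not move together. Genes that respond to p53 and stress went both ways: Ccng2 (1.82), Gadd45b (1.89) and Pmaip1 (1.66) rose, and Btg1 (-0.90), Perp (-0.64) and Ccng1 (-0.51) fell. Mdm2, Bbc3, Sesn1, Phlda3 and Zmat3 did not pass. Cdkn1a (p21), a well known p53 target, stood at 19896 and 17951 in the MEF and 12284 to 28695 in the lines. Cdkn1a did not pass (0.01, 95% confidence interval -0.42 to 0.44, adjusted p = 0.973), and its arrays overlapped.

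**Figure D3:**
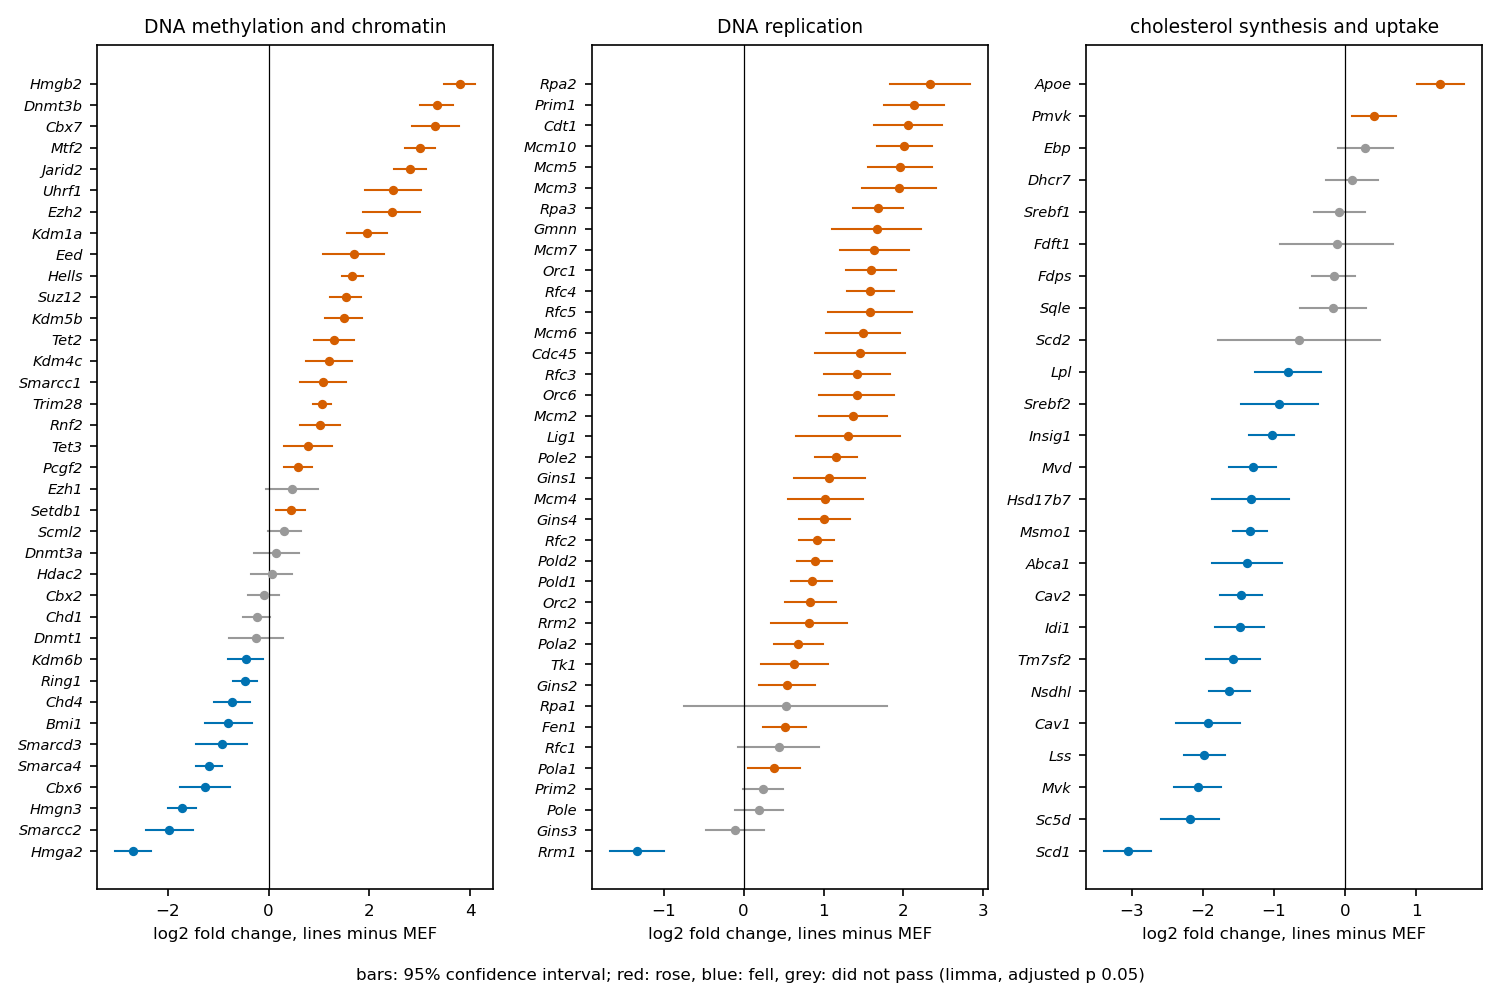
Log2 fold change of the 4 lines against the MEF for each measured member of 3 gene lists (x axis), with 95% confidence intervals; red rose, blue fell, grey did not pass. Replication genes lie to the right but for Rrm1 and a few near 0, chromatin genes reach from Hmgb2 to Hmga2, and most sterol genes lie to the left.

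In metabolism, nucleotide and one-carbon genes rose more often than they fell. Of 28 measured, 13 rose (46.4%), 6 fell (21.4%) and 9 did not pass (median 0.39). Of all genes 28.8% rose and 29.1% fell. The largest rises were those of Upp1 (6.75, 3.55 on its other probe) and Qprt (5.91). Ppat, the first enzyme of purine synthesis, stood at 117 and 198 in the MEF and 540.4 to 1169 in the lines (2.26, SE 0.16, adjusted p = 1.05e-07). Gmps, which makes GMP, stood at 226 and 284 against 589 to 3567 (2.23). The glycine decarboxylase Gldc stood at 151 and 158 against 846 to 1560 (2.65). All 3 were higher on every line array than on both MEF arrays. The serine hydroxymethyltransferases split: cytosolic Shmt1 rose (2.10), and mitochondrial Shmt2 fell (-0.93), though its other probe gave -0.04. Nicotinamide methyltransferase Nnmt (-1.23) and adenosine kinase Adk (-1.04) fell as well.

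Glycolysis genes rose in 12 of 14 cases with no fall (median 0.96). The glucose transporter Slc2a1 stood at 1163 and 889 on the MEF arrays and 9132 to 18716 on the line arrays (3.53), hexokinase Hk2 at 2773 and 2493 against 13778 to 18860 (2.53), and the lactate transporter Slc16a3 at 408 and 444 against 1642 to 2969 (2.30). These genes act where glucose enters and lactate leaves. Enzymes between these steps rose less, among them Pgam1 (1.10), Aldoa (0.85), Tpi1 (0.70) and Gpi1 (0.68), on every line array. Pyruvate kinase Pkm (0.19, adjusted p = 0.287) and Pfkm (0.10) did not pass. Oxidative phosphorylation genes rose in 14 of 29 cases and fell in 1, with 14 that did not pass (median 0.52). The largest rises were in Sdhd (1.71), Ndufb3 (1.53), Ndufb9 (1.52) and Ndufa8 (1.51), subunits of complexes II and I. The lines differed from each other in 4 of the 29 genes. The single fall, Ndufs4, fell by 0.33 and was lost when Dlx3RNAi (-0.15, adjusted p = 0.382), MEF array 1 (-0.19, adjusted p = 0.411), or the second array of G3 (adjusted p = 0.0575) or of Dlx3RNAi (adjusted p = 0.0577) was left out, or its other probe was used (0.49). Ribosomal protein genes rose in 17 of 28 cases with 3 falls (median 0.58), led by Rpl13 (2.68) and Rpl24 (2.26), and ribosome biogenesis genes in 15 of 23 with 1 fall (median 0.61), led by Dkc1 (1.84) and Gar1 (1.59). Probes of ribosomal protein genes can share sequence with processed pseudogenes, so single members are uncertain.

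Sterol genes fell: 16 of 25 measured fell, 2 rose and 7 did not pass (median -1.30). The fatty acid desaturase Scd1 stood at 18860 and 21519 in the MEF and 1692 to 3999 in the lines (-3.06, SE 0.16, adjusted p = 1.87e-16). In the sterol pathway proper, Mvk (-2.07), Lss (-1.98), Sc5d (-2.18) and Nsdhl (-1.62) fell, on every line array below both MEF arrays. The squalene enzymes Fdft1 (-0.12) and Sqle (-0.17) did not pass. Apoe, a lipoprotein component, rose (1.34), and so did Pmvk (0.41), which was lost on its other probe (0.12), without MEF array 1 (0.30, adjusted p = 0.235), without G3 (0.22, adjusted p = 0.216) and without R1 (0.33, adjusted p = 0.0776). The MEF were grown with serum and the lines in N2 and B27 medium, which cannot be told apart from the difference in cell state. A sterol response element, TCACNCCAC, was found in 0 of 19 promoters of this list and in 85 of 9641 of all genes (0.882%), so no match is shown. Lysosome and autophagy genes fell in 15 of 28 cases and rose in 6 (median -0.40), led by Gabarap (-2.28) and Gla (-1.41). Gaa fell by 1.67 on its brighter probe and rose by 0.75 on the other.

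The epithelial list rose, with 12 rises and 1 fall among 15 measured genes (median 1.69). Cdh1 and Epcam were not measured. Spint2, a membrane protease inhibitor, stood at 312 and 306 in the MEF and, over the lines, at 1923 at the lowest, 3620 at the median and 5279 at the highest (3.29, SE 0.21, adjusted p = 7.13e-11). The protease St14 that it inhibits rose by 3.01, from 39.5 and 59.5 to 329 to 1276. Tight junction genes Cldn6 (2.96), Cldn7 (2.16) and Lsr (2.57) and the keratin Krt8 (2.06) rose on every line array. P-cadherin (Cdh3) was the one that fell, from 2000 and 1805 to 306 to 577 (-2.04). Of the keratinocyte list, 5 of 12 rose and 1 fell. Sfn (stratifin, also in other epithelia) stood at 242 and 213 against 2079 to 5811 (3.52). Krt17 (1.31), Dsc3 (0.72), the basal keratin Krt5 (0.69) and Lor (0.55) also rose, and Perp (-0.64) fell. The basal keratin Krt14 (0.15) and the master factor Trp63 (-0.12) did not pass.

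Transcription factors of the mesenchyme and limb fell in 24 of 31 cases (median -1.02). The forkhead genes Foxc1 and Foxd1 stood at 1021 and 903 and at 1420 and 1171 on the MEF arrays, and at 33.7 to 75.2 and at 69.6 to 120.3 on the line arrays (log2 fold changes -3.59 and -3.40). Snai2 (Slug), which represses epithelial genes, stood at 2574 and 2890 against 139.5 to 405 (-3.37, SE 0.19, adjusted p = 7.52e-16). Tbx15 (-2.30), a skin and skeleton factor, and the tendon factor Scx (-2.15) fell too, and none of these overlapped. The 2 rises were Lhx9 (1.03) and Msx1 (0.74), the second lost without MEF array 1 (0.32, adjusted p = 0.39). Snai1 (0.04) did not pass.

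Hox genes fell in 17 of 26 cases, rose in 3 and did not pass in 6 (median -0.96). Hoxc6 stood at 5251 and 5795 on the MEF arrays, at 2614 and 2070 in Dlx3RNAi, at 1794 and 1937 in G6Gm, at 1272 and 1134 in R1 and at 792 and 925 in G3. All 4 lines were below the MEF (-1.90, SE 0.12, adjusted p = 2.15e-14), and they differed from each other (adjusted p = 4.38e-08, moderated F). Hoxd8 (-2.19), Hoxa11 (-1.91) and Hoxa5 (-1.87) had falls of similar size. Hoxa7 fell by 1.38 but was lost without MEF array 2 (-1.03, adjusted p = 0.161), and Hoxb3 fell by 1.67 on the brighter probe and rose by 0.53 on the other. The genes that rose were Hoxd13 (0.96), Hoxc13 (0.77) and Hoxb1 (0.77). Hoxb1 was lost when either MEF array was left out (adjusted p = 0.0678 and 0.116) or R1 was (0.0806). Hoxd13 and Hoxc13 lie at the 5′ end of their clusters, Hoxb1 at the 3′ end.

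Of 24 collagen genes 18 fell, 3 rose and 3 did not pass (median -1.21), and of 44 other matrix genes 26 fell, 5 rose and 13 did not pass (median -0.74). The fibrillar collagen Col3a1 stood at 1036 and 1057 on the MEF arrays and, over the lines, at 34.6 at the lowest, 79.1 at the median and 200.4 at the highest (-3.16, SE 0.14, adjusted p = 3.22e-17). Col11a1 (-2.86) and Col5a2 (-2.48) fell as clearly. Col1a2, the partner chain of collagen I, behaved otherwise. It stood at 8541 and 9093 in the MEF, at 10649 and 11210 in G6Gm, at 11617 and 12169 in Dlx3RNAi, at 6627 and 6288 in R1 and at 2844 and 2882 in G3. The lines lay on both sides of the MEF, the mean fall of 0.33 passed (adjusted p = 0.00697), and without G3 the difference was 0.10 (adjusted p = 0.447). It was also lost without MEF array 2 (-0.28, adjusted p = 0.102). Cartilage collagen Col9a2 (1.5) and the basement membrane collagen Col18a1 (0.99) rose. With each line's mean as 1 replicate, 11 collagen falls passed.

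Genes of the elastic fibre were divided. Besides Eln, Fbln5, which links elastin to cells, stood at 11009 and 10744 in the MEF and 221 to 1444 in the lines (-3.93), and fibrillin Fbn2 at 3541 and 3664 against 111 to 348 (-3.87). Fibrillin Fbn1 fell less (-2.08), the microfibril gene Mfap5 rose (0.99, adjusted p = 3.68e-06) but was lost with each line's mean as 1 replicate (adjusted p = 0.103), and Ltbp2 did not pass (-0.41, adjusted p = 0.0532). Fbln1 rose by 0.30 (adjusted p = 0.0445), a call lost under most leave-outs, among them either MEF array (adjusted p = 0.137 and 0.198), Dlx3RNAi (0.135) and R1 (0.0626). Of the small proteoglycans, lumican Lum (-3.19) and fibromodulin Fmod (-2.70) fell. Fbln5, Fbn2, Fbn1, Lum and Fmod did not overlap between lines and MEF. Tenascin C (Tnc), by contrast, stood at 11656 and 11568 in the MEF and 7636 to 22888 in the lines (0.22, adjusted p = 0.235), and passed when G3 was left out (0.47, adjusted p = 0.0162). Plod2, a collagen lysyl hydroxylase, rose on every line array, from 793 and 1032 to 2115 to 4169 (1.64). Among proteases and inhibitors 14 of 23 fell and 4 rose (median -0.47). Adamts1 stood at 2810 and 2938 against 137 to 608 (-3.04), and Mmp9, which cuts basement membrane collagen, at 59.1 and 62.8 against 205 to 594 (2.22). With line means as replicates 3 protease falls passed.

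Fibroblast markers were read line by line. Their list was chosen with earlier results of these data known, so it does not check the labels. Of 31 measured, 26 fell, none rose and 5 did not pass (median -1.42), but their levels in the lines were far from 0. The median marker was at 48.5% of its MEF mean in G6Gm, 16% in G3, 65.3% in Dlx3RNAi and 32.1% in R1. Markers below 10% of the MEF level numbered 1 in G6Gm, 9 in G3, 1 in Dlx3RNAi and 7 in R1, and those above 100% numbered 6, 0, 8 and 1. Pdgfra, the receptor that defines mesenchymal fibroblasts, was at 8.28% in G6Gm, 2.83% in G3, 6.28% in Dlx3RNAi and 3.81% in R1. The calcium-binding protein S100a4 was at 11.6%, 4.51%, 10.8% and 5.16% in the same order. Both were therefore low in all 4 lines, R1 included. Periostin (Postn), a matrix protein of activated fibroblasts, was at 102%, 48.5%, 177% and 89.4%, and follistatin-like Fstl1 at 138%, 58.4%, 174% and 92.6%. Vimentin (Vim), the intermediate filament protein of mesenchymal cells, was at 117%, 96.8%, 129% and 111%. These 3 did not pass against the MEF (Postn -0.09, adjusted p = 0.688; Fstl1 0.10, 0.768; Vim 0.17, 0.145), although Vim passed without G3 (0.25, adjusted p = 0.0457). Cd44 (-0.23, adjusted p = 0.195) and Fn1 (-0.32, adjusted p = 0.279) were the other two, and Cd44 passed as a fall without G6Gm (-0.57, adjusted p = 0.00212) or without Dlx3RNAi (-0.51, adjusted p = 0.0051).

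The lines differed in 25 of the 31 fibroblast markers, 19 of 24 collagens and 30 of 44 other matrix genes (moderated F), against 32.1% of all genes. Of the fibroblast markers, 22 were highest in Dlx3RNAi and 9 in G6Gm, while 26 were lowest in G3 and 5 in R1. Collagens ran alike, with 15 of 24 highest in Dlx3RNAi and 18 lowest in G3. Against the same MEF arrays their medians were -0.68 in G6Gm, -1.88 in G3, -0.42 in Dlx3RNAi and -1.43 in R1. The summed intensity of the 31 markers ran from 67724 to 171709 over the line arrays and from 198532 to 208684 on the MEF arrays. The lines were grown on MEF feeder cells, which carry such transcripts, and their share in these RNAs was not tested. Among the other lists, the summed intensity of the myeloid markers ran from 4548 to 7316 in the lines and from 6300 to 6444 in the MEF. Of the 16 measured, 9 fell, 1 rose and 6 did not pass. Genes of macrophages among them, Cd14 (-3.14), C1qa (-1.62) and Mpeg1 (-1.39), fell, with Mpeg1 lost without MEF array 2 (-1.24, adjusted p = 0.0571), and the lysosomal gene Laptm5 rose (2.69). Cd14 stood at 1623 and 1431 on the MEF arrays, while the leukocyte gene Ptprc (0.41) and Aif1 (-0.02) did not pass. Summed endothelial markers were at 12080 to 12105 in the MEF and 9604 to 14697 in the lines, adipocyte markers at 1950 to 2156 against 1463 to 1989, and skeletal muscle markers at 2833 to 3384 against 3166 to 4964.

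**Figure D4:**
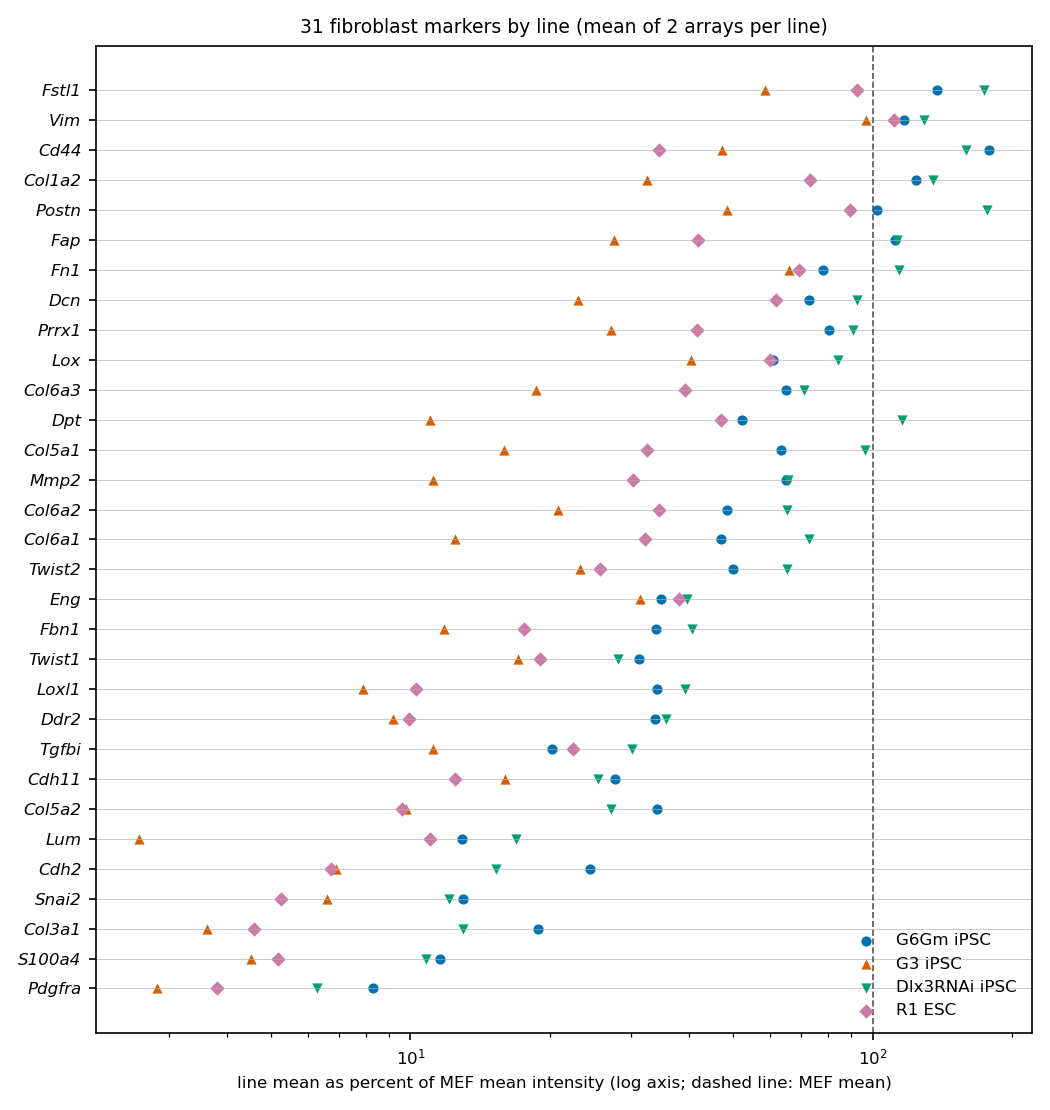
Mean intensity of each fibroblast marker in each line as a percentage of the MEF mean (log axis; 2 arrays per line; the dashed line marks the MEF mean). Pdgfra, S100a4 and Col3a1 lie below 20% in all lines, Vim lies near the dashed line, Postn and Fstl1 lie on both sides of it, and G3 or R1 lies lowest in each row.

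Growth factor and receptor genes fell in 25 of 45 cases and rose in 11 (median -0.57). Kit, the receptor for stem cell factor, stood at 82.4 and 84.7 on the MEF arrays, at 1008 and 973 in Dlx3RNAi, at 1682 and 1361 in G6Gm, at 2491 and 2952 in G3 and at 5549 and 5803 in R1. It rose in the lines (4.27, SE 0.28, adjusted p = 9.08e-11) and differed between them (adjusted p = 8.57e-05, moderated F). Bmp4 (1.70), a BMP ligand used by naive cells, and Pdgfa (1.25), the ligand of Pdgfra, rose as well. Igfbp2 rose (2.09), whereas the binding proteins Igfbp3, at 2171 and 2714 in the MEF and 102 to 383 in the lines (-3.57), and Igfbp4, at 9867 and 8501 against 677 to 1521 (-3.24), fell. Igfbp7 did not pass (-0.13, adjusted p = 0.145), with arrays at 48214 and 45459 in the MEF and 31624 to 55250 in the lines, and passed as a fall without G6Gm (-0.22, adjusted p = 0.0171) or Dlx3RNAi (-0.21, adjusted p = 0.0218). Midkine (Mdk) rose by 2.06, and its other probes gave 0.61, which did not pass, and 0.82, which was not tested. Of the cytoskeletal list, 8 of 21 fell, 5 rose and 8 did not pass (median -0.19): filamin Flnc (-1.74) and Tagln (-1.51) fell, and Csrp2 (1.76) and Tagln2 (0.86) rose.

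Imprinted genes fell in 15 of 25 cases and rose in 8 (median -0.83). H19, a maternally expressed noncoding RNA, stood at 31624 and 30270 in the MEF, at 752 and 739 in G6Gm, at 1068 and 1181 in Dlx3RNAi, at 1121 and 1282 in R1 and at 4180 and 3770 in G3 (log2 fold change -4.42). Its neighbour Igf2, a paternally expressed growth factor, stood at 38139 and 34760 in the MEF and was lowest in G3, at 4305 and 3942, and highest in Dlx3RNAi, at 15894 and 16150 (-1.97). Both genes fell in every line, and G3, the line with the most H19, had the least Igf2. The reverse did not hold, since H19 was lowest in G6Gm and Igf2 highest in Dlx3RNAi. G3 was also the lowest line for 27 of the 45 growth factor and receptor genes, a list that includes Igf2. Phlda2, which restrains placental growth, went the other way, from 90.4 and 76.4 in the MEF to 673 to 2432 in the lines (3.36). The interferon and antigen presentation list was even, with 7 rises (28%), 7 falls (28%) and 11 of 25 that did not pass (median 0.06). These shares are close to those of all genes, 28.8% and 29.1%. In it Ifit2 fell from 241 and 354 to 40.3 to 133 (-1.56), and the membrane protein Bst2 rose from 3449 and 2882 to 3896 to 9365 (1.17), with R1 the lowest line at 3896 and 3986. Against the same MEF arrays, 12 of these genes rose and 1 fell in Dlx3RNAi (23.3% and 24.9% of all genes), and 2 rose and 7 fell in R1 (25.6% and 27.5%). In G6Gm 7 rose and 1 fell (18.5% and 21.6%), and in G3 5 rose and 8 fell (25.4% and 26.8%).

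Markers of other cell types were also counted, against 28.8% of all genes that rose and 29.1% that fell. Of 13 endothelial genes 6 rose (46.2%) and 3 fell (23.1%): Pecam1, an adhesion molecule also made by pluripotent cells, stood at 35.9 and 40.3 in the MEF and 169 to 342 in the lines (1.81), and Emcn fell (-1.73), while the defining genes Cdh5 (0.11) and Kdr (-0.04) did not pass. Of 5 adipocyte genes 1 rose and 1 fell, of 7 skeletal muscle genes 2 rose and 1 fell, and of 6 melanocyte and Schwann cell genes 2 rose and 1 fell. Of 12 neural progenitor genes 4 rose (33.3%) and 5 fell (41.7%), led by Zic1, from 3047 and 2915 to 349 to 1445 (-1.81). Of 6 trophoblast genes 3 rose (50%) and 1 fell (16.7%), and Hand1, one of the rises (1.07), was lost without MEF array 2 (0.67, adjusted p = 0.23).

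Markers of neighbouring embryonic states were also measured. Of the primed epiblast list, 5 of 7 rose and 2 fell (median 1.20), with Dnmt3b and Cldn6 shared with the lists above. Pou3f1 (Oct6) rose by 1.20 but was lost without MEF array 1 (0.99, adjusted p = 0.0603), and its line arrays reached only 94.4 to 152. In the primitive endoderm list, where 2 of 14 rose and 8 fell, Gata4 stood at 1510 and 1419 in the MEF and 290.2 to 545 in the lines (-1.77), and Gata6 at 1282 and 1159 against 242 to 616 (-1.62). Both factors were thus higher in the skin fibroblasts than on any line array. Amn, an endoderm receptor component, rose (1.40). Mesendoderm genes rose in 2 and fell in 5 of 13 cases, and T (brachyury, 0.53) and Mixl1 (0.28, adjusted p = 0.165) did not pass. Xist, the RNA of the inactive X chromosome, stood at 159.5 and 152 in the MEF and 58.5 to 98.8 in the lines (-0.74). Y-linked Kdm5d stood at 270.1 and 222 against 66.3 to 128.1 (-1.17), and neither differed among the lines (moderated F). Both stayed below the median gene mean of 334 on every array. The MEF and iPSC lines are labelled female. The values of these 2 probes may be no more than background, so they do not check the sex label and no direction is drawn. Of the factor genes not yet named, Grb2 (0.96) and Sox3 (0.86) rose, and Cebpa (-0.15, adjusted p = 0.707) did not pass. Dlx3, named in the label of the RNAi line, stood at 254 and 384 there, at 299.9 and 233 in G6Gm, at 451 and 300 in G3, at 531 and 615 in R1 and at 144 and 92.3 in the MEF. Whether its probe lies in the part an RNAi sequence would target is not known, so the values do not check that label. Among bright genes, 2 had a 95% confidence interval within 0.25 of no change, Rab5if (-0.20 to 0.22) and Ppan (-0.24 to 0.18), and both differed among the lines.

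The lines differed from one another in 3845 of 11991 genes (32.1%), a share that was 40.1% among the genes called against the MEF and 21.0% among the rest. Several of the genes with the widest range of line means were set apart by a single line. Gpd1, the cytosolic glycerol 3-phosphate dehydrogenase, stood at 29471 and 29471 in G6Gm, equal on both arrays, at 116 and 104 in the MEF, at 131 and 199 in G3, at 122 and 159 in Dlx3RNAi and at 102 and 143 in R1 (range 7.59 on the log2 scale, adjusted p = 1.4e-20, moderated F). Its mean rise over the lines came from G6Gm, and without that line the change was 0.28 and did not pass. Ipp, an actin-binding kelch protein, stood at 5854 and 5373 in G3 and at 204 and 324 in G6Gm, 279.5 and 196 in Dlx3RNAi, 358 and 335 in R1 and 217 and 256 in the MEF. Without G3 its change was 0.20 and did not pass. Cdk12, a kinase of transcription elongation, was low in G6Gm, at 49.8 and 59.9, and in the MEF, at 101 and 105, and stood at 2737 and 2686 in G3, 2236 and 2176 in Dlx3RNAi and 2359 and 2260 in R1. Its other probe gave means of 206.5 in the lines and 269.8 in the MEF and did not pass, so the pattern rests on 1 probe. The ubiquitin-like gene Ubd was low in R1 alone among the lines, at 30.8 and 39.2, and stood at 419 and 426 in G6Gm, 765 and 738 in G3, 583 and 492 in Dlx3RNAi and 86.6 and 69.2 in the MEF. Strain and the origin of the line cannot be told apart in R1.

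The remaining genes of this kind differed by degree. Rhox13, a homeobox gene of the same X-linked cluster as Rhox5, stood at 66 and 51.5 in the MEF, 414 and 386 in Dlx3RNAi, 1980 and 1642 in G3, 2878 and 2672 in G6Gm and 5638 and 4339 in R1. Every line was above the MEF, and Dlx3RNAi was the lowest line. Fgfbp1, which carries secreted FGFs, was highest in G3, at 2675 and 2663, and lowest in R1, at 281 and 264. Pclaf, a partner of the replication clamp PCNA that is not in the replication list, fell as a mean over the lines (-1.91). It stood at 656 and 895 in the MEF and at 611 and 754 in G3, but at 199.5 and 222 in G6Gm, 104 and 104 in Dlx3RNAi and 56.5 and 52 in R1. The matrix genes Aspn and Crispld2 and the RNA-binding gene Rbms3 were lowest in G3 or R1. Rbms3 gave a change of -3.08 from MEF, and -1.79 on its other probe. Aspn stood at 78 and 54.6 in G3 and 187 and 167 in R1, against 631 and 604 in G6Gm, 895 and 660.4 in Dlx3RNAi and 1077 and 1044 in the MEF. Crispld2 fell as a mean over the lines (-0.80), but was lost without G3 (-0.17, adjusted p = 0.589) and without MEF array 1 (-0.75, adjusted p = 0.078). With each line's mean as 1 replicate, the difference from MEF was lost for Aspn (adjusted p = 0.0685), Cdk12 (0.0645), Ubd (0.118), Ipp (0.347), Gpd1 (0.355) and Crispld2 (0.368).

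**Figure D5:**
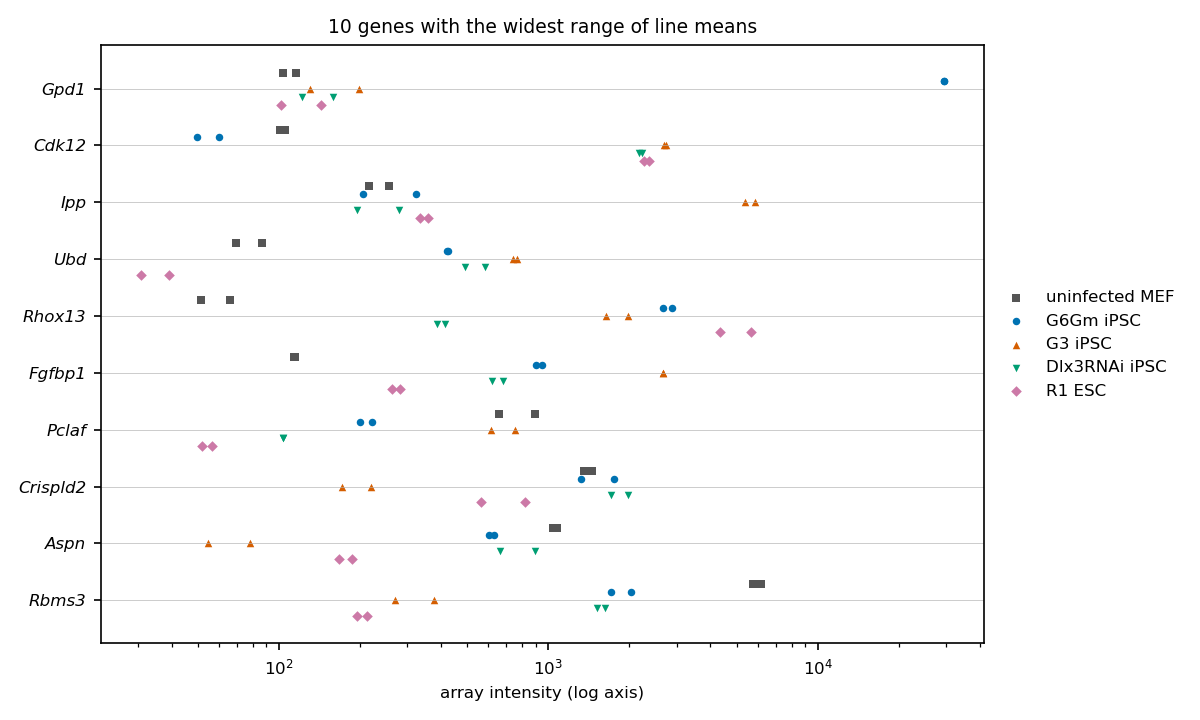
Array intensity (log axis) of the 10 genes with the widest range of line means, 1 point per array. Gpd1 is set apart by G6Gm at 29471, Ipp by G3 and Ubd by R1, whose points lie away from those of the other lines.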

How the data were processed

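The members, lists and rules were chosen with earlier results of these data known. The deposited values are linear intensity values per probe of one-colour Cy5 arrays, and how they were scanned, corrected for background or normalized is not given in the sources used here. Sorted values of the 10 arrays nearly coincide (median deviation 0.0573%), with array medians of 295.9 to 296.2, and are whole multiples of 1/44 within 0.002. No pair of arrays was identical. Of 19426 probes, 15539 carry 1 symbol (13971 current, 1538 by a synonym, 30 as given), for 13852 genes; the probe with the highest mean stood for a gene with several, of which there were 1531, and 11991 genes had values on all 10 arrays. limma 3.58.1 in R 4.3.3 fitted 1 mean per group to log2(intensity + 32) over all 49 arrays in 23 groups, with a variance trend and two-sided tests. All arrays share 1 estimate of the spread. The number of arrays limits the precision.

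Genes named were the 15 rises and 15 falls with the widest gap, up to 6 passing members per list, those against its direction, members that did not pass, 10 genes with the widest range among lines, the factor genes and bright unchanged genes. Beyond that rule, 34 genes were recomputed as well, and these and a few list members with a value only were named after their values were seen. The model was run on simulated data with 200 of 11991 genes changed in each of 10 draws, and equal noise in lines and MEF. It called 0.0628% of unchanged genes, 26.6% of log2 changes of 0.5 and 84.6% of changes of 1. In the real data 57.8% of genes passed, so these rates need not hold there. Alternatives changed the pseudocount (1 and 128), dim genes, normalization, samples, the probe, the variance trend, a replicate block, and left out each array and line. Promoters of 250 bases before the start are RefSeq's (GRCm38.p6).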

Additional observations from a re-analysis of the deposited data

Results flagged for a closer look

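Among the genes that set lines apart from MEF, the lines differed from each other (limma's moderated F over 3 contrasts) in the rises of Upp1, Rhox5, Slc2a3, Qprt and Pgf, whose line means spanned 1.11, 1.27, 1.28, 1.09 and 1.23 on the log2 scale. The same held for Ooep, Sox2, Utf1, Zfp42 and Rec114, with ranges of 0.93, 0.78, 0.74, 1.15 and 0.97, and for Fam169a, Dazl and Apoc1, with 1.05, 2.38 and 1.40. Of the falls, Ptn, Mgp, Dlk1 and Agtr2 differed among lines, with ranges of 2.05, 0.77, 1.34 and 0.55. In Samd5 a single G3 array lay below the other line arrays, with a gap of 0.668 of the whole range past Dixon's 95% critical value for 8 values. Chance flags about 1 in 20 such groups, and Samd5 was below the MEF on all 8 line arrays.

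Gpd1 had the widest range of line means (7.59), followed by Cdk12 (4.98), Ipp (4.41), Ubd (3.55), Rhox13 (3.53) and Fgfbp1 (3.15). Pclaf, Crispld2 and Aspn each had a range of 3.04, and Rbms3 one of 3.01. Of the factor genes, Pou5f1 (1.85), Klf4 (0.83), Gata6 (1.06) and Sox3 (0.81) differed among the lines. Rab5if (0.68) and Ppan (0.56) differed among the lines though their means did not differ from the MEF by more than 0.25. Of 255 other list members that the naming rule selected, 140 differed among the lines, and of all genes 3845 did.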

How the results depend on the processing

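The count of genes called for the lines against MEF stayed within 1.5 times of 6935 under all alternatives, from 4815 without dim genes (7335 genes tested) to 8543 in a fit of the 10 arrays alone, and was 5645 with each line's mean as 1 replicate. Leaving out a MEF array gave 5482 or 5073, and another array 6657 to 6824. The count among lines was 3845, and 6884 in the fit of the 10 arrays alone, where the spread of other groups does not enter. Replicate numbers are shared by all groups, but the correlations of same-numbered arrays ran from -0.24 to 0.238 over 10 pairs of groups, so they share a number only. With the replicate block in the 10 arrays, 8524 genes were called for the lines against MEF and 6735 among lines. Without the 3 arrays of OKM+EV, the group with the widest spread, an alternative chosen after seeing the data, the counts were 7812 and 5582. Lmna did not pass (-1.96, adjusted p = 0.0661) with all line arrays at 2786 to 7771 below the MEF at 18194 and 16819, and passed in the 10 arrays alone (adjusted p = 5.32e-09), without G6Gm (0.0491) and on its other probe (5.57e-07).

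On the other probe the direction was the opposite for Rgs9 (1.03), Cdk12 (-0.36), Nr0b1 (3.13), Smarca4 (0.99), Hoxb3 (0.53), Bub1 (-0.67), Fancb (0.23, with -0.84 on a further probe, the direction of the probe used), Ndufs4 (0.49), Ddx21 (0.41), Gaa (0.75) and Impact (-0.45), and without G3 for Col1a2 (0.10). The cause was not tested. Fn1 (adjusted p = 0.0125), Spp1 (0.0257) and Tnc (0.0216) passed in the 10 arrays alone. For 341 named genes, 3608 of 3696 values under other settings and 4627 of 4774 values with an array or line left out kept direction and side of the threshold.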

Other observations

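The genes below lie outside the naming rule and were chosen after their values were seen. Egln3, a prolyl hydroxylase that senses oxygen, stood at 472 and 427 on the MEF arrays and, over the lines, at 5999 at the lowest, 7707 at the median and 9745 at the highest (log2 fold change 4.01, adjusted p = 2.42e-17, limma). Mitochondrial adenylate kinase Ak4 stood at 302 and 283 in the MEF and 3245 to 7596 in the lines (3.81). The lipid droplet gene Hilpda stood at 315 and 291 against 1520 to 4957 (3.03), and the secreted lipase inhibitor Angptl4 at 417 and 514 against 2620 to 8047 (3.50). Ankrd37 (3.29) and Mgarp (3.35) rose as well. For all 6 genes every line array, R1 included, was above both MEF arrays.

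Among secreted regulators of Wnt signals, Rspo2 stood at 1183 and 1398 in the MEF and 76.1 to 115 in the lines (-3.32), and the antagonist Dkk2 at 4215 and 3760 against 159 to 369 (-3.74). The chemokine Cxcl12 stood at 6370 and 5461 against 291 to 993 (-3.40). All 3 were lower on each line array than on both MEF arrays.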
